A study of Saccharomyces cerevisiae with 12 samples.

Results

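The chaperones and ATP-dependent proteases of the mitochondrion were followed at the mRNA level in mild heat-shocked yeast. The group was chosen by gene name from textbook function, with earlier results of these data known. It holds 10 genes, *HSP60*, *HSP10*, *SSC1*, *ECM10*, *MDJ1*, *MGE1*, *HSP78*, *PIM1*, *MCX1* and *YME1*. All 10 were measured, among 6019 features of the array. *S. cerevisiae* JN54, a wild-type *MATa* laboratory strain that carries *his3*, *leu2*, *ura3*, *trp1* and *lys2* mutations, was grown in rich YPD medium and exposed to 43°C for 60 or 30 min. Control cells of the same strain were kept at 30°C for the same time. Poly(A) RNA of heat-shocked cells was labelled with Cy5 and that of control cells with Cy3, and both were hybridized to 1 cDNA microarray. The data set holds 6 such arrays, 3 experiments at each time, and each array gives 1 ratio of heat-shocked over control RNA per gene.

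Most mitochondrial proteins are made in the cytosol and cross the mitochondrial membranes unfolded, so they must be folded again inside. In the matrix, the Hsp70 protein Ssc1 pulls in and holds the incoming chain, the J-protein Mdj1 and the nucleotide exchange factor Mge1 drive its ATP cycle, and the Hsp60 chaperonin with its lid Hsp10 encloses chains while they fold. Hsp78, a relative of the cytosolic disaggregase Hsp104, recovers aggregated matrix proteins, and the proteases Pim1 in the matrix and Yme1 in the inner membrane degrade proteins that do not fold or assemble.

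The values are log ratios whose base the sources used here do not name. They were read as log2, so that 1 stands for a 2-fold higher level in heat-shocked cells and 0 for no difference. A ratio holds no level, so the abundance of 1 gene cannot be set against that of another, and the strain cannot be checked from a marker. The heat-shock genes *HSP12*, *HSP26* and *SSA4* lay above 0 on all 6 arrays, which set the direction. Arrays of 60 min correlated with each other at 0.598 to 0.736 and arrays of 30 min at 0.773 to 0.853 across genes. The spread of ratios (median absolute deviation) was 0.410 to 0.703 at 60 min and 0.380 to 0.559 at 30 min, with experiment 3 the narrowest at each time. The study's methods call the experiments independent. The sources used here do not say whether each had its own culture, and no dye swap is described, so p-values measure the spread between these arrays, and a dye effect cannot be told apart from heat shock. Spots were grouped by the start of the probe name, and these groups are called print blocks here. The study's methods do not describe the layout of the array, so it is an assumption that the spots of a group were printed together. The median ratio of the members' blocks, averaged over 3 arrays, ran from -0.56 to 0.38 at 60 min and from -0.41 to 0.21 at 30 min. Whether the place of a spot caused this was not tested. Centring each print block on its own median is given wherever it changed a member's call or moved its mean by over 1.5 times, as "print-block centring".

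The 10 genes did not move as 1 group. At 60 min, *HSP78* alone rose, and *SSC1*, *MDJ1*, *MGE1* and *PIM1* fell. At 30 min, *HSP60*, *HSP10* and *HSP78* rose and *MGE1* fell. These are the genes with an adjusted p under 0.05 in limma, a moderated linear model over all 6019 features. At 60 min, 1 of 10 members rose, where 15.6% of all features did, and 4 of 10 fell, where 18.2% of all features did. At 30 min, 3 of 10 members rose, against a background of 10.7%, and 1 of 10 fell, against a background of 15.9%. The median log2 ratio of the members was -0.54 at 60 min and 0.00 at 30 min, while the median of all features was 0.01 at 60 min and -0.01 at 30 min. Array weights in limma count an array less the more it departs from the mean of its time. With array weights, *MGE1*, *HSP78* and *PIM1* lost their calls at 60 min (adjusted p = 0.0693, 0.0550 and 0.0697), and *SSC1*, *MDJ1* and *MCX1* fell at 30 min (0.0142, 0.0474 and 0.0105). With 60 min fitted alone, *MGE1* and *PIM1* lost their calls (0.0645 and 0.0797), and with 30 min fitted alone, *SSC1* and *MDJ1* fell at that time (0.0269 and 0.0273). Without experiment 3 of both times, the calls of *SSC1*, *MDJ1* and *MGE1* at 60 min (0.0595, 0.160 and 0.0550) and of *HSP60*, *HSP10* and *HSP78* at 30 min (0.0959, 0.0628 and 0.0876) were lost.

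**Figure D1:**
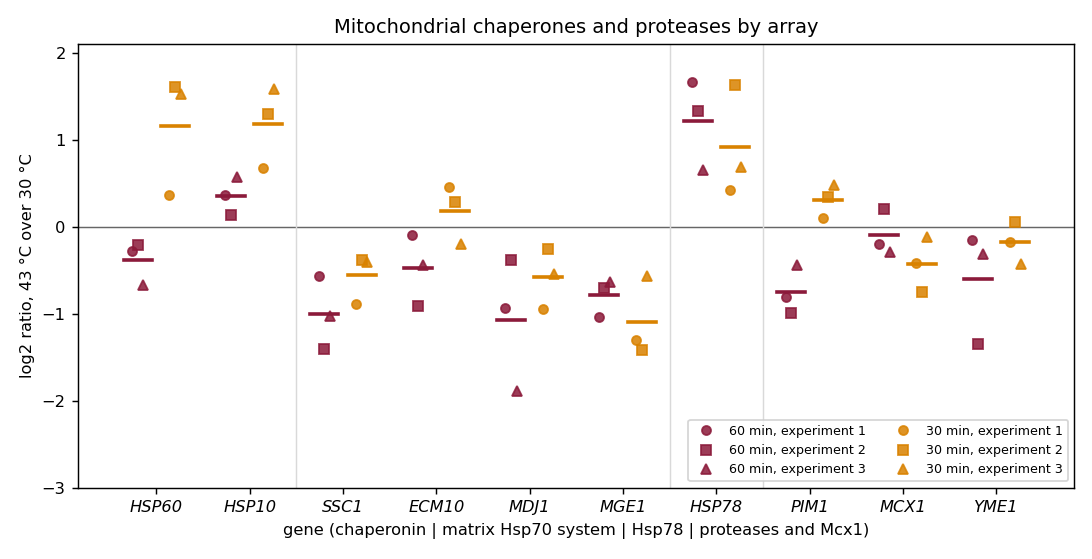
Log2 ratio of heat-shocked (43°C) over control (30°C) RNA for each gene (x axis, grouped by function) on each of the 6 arrays. Marker shapes are experiments 1 to 3 at 60 min (dark red, left) and at 30 min (orange, right), and horizontal bars are the means of 3. *HSP60* and *PIM1* lie below 0 on all 3 arrays of 60 min and above 0 on all 3 arrays of 30 min, *HSP78* lies above 0 on all 6 arrays, and *SSC1*, *MDJ1* and *MGE1* lie below 0 on all 6.

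The study's own rule calls a gene when its ratio is over 2-fold in at least 2 of 3 experiments. By this rule, *HSP78* was up at 60 min (1 of 10 members, 6.89% of all features) and *HSP60* and *HSP10* were up at 30 min (2 of 10, 4.42% of features). *SSC1* was down at 60 min (1 of 10, 10.5% of features) and *MGE1* was down at 30 min (1 of 10, 10.2% of features). No member passed 2-fold in all 3 experiments at either time. After print-block centring the 2-fold rule called only *HSP60* and *HSP10* at 30 min and no member in the other 3 counts.

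The chaperonin genes rose at 30 min, and neither passed the test at 60 min. *HSP60* encodes the subunit of the folding chamber. Its log2 ratios were -0.28, -0.21 and -0.67 in experiments 1 to 3 at 60 min, and 0.36, 1.60 and 1.52 at 30 min. Every array of 60 min was thus below 0 and every array of 30 min above it, with experiment 1 at 30 min well under the other two. The mean was -0.39 ± 0.25 at 60 min (SD, n = 3, adjusted p = 0.278 by limma) and 1.16 ± 0.69 at 30 min (n = 3, adjusted p = 0.00922), a fold of 2.24 at 30 min. The call at 30 min was lost when experiment 2 (adjusted p = 0.111) or experiment 3 (adjusted p = 0.0691) of 30 min was left out.

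*HSP10* encodes the lid of the same chamber. The log2 ratios were 0.36, 0.13 and 0.57 at 60 min, and 0.67, 1.30 and 1.59 at 30 min, all 6 above 0, with no overlap of the times. The mean was 0.36 ± 0.22 at 60 min (SD, n = 3, adjusted p = 0.249) and 1.19 ± 0.47 at 30 min (n = 3, adjusted p = 0.00412), a fold of 2.27 at 30 min. Without experiment 2 of 30 min the adjusted p at that time was 0.0514, and with print-block centring *HSP10* rose at 60 min too (0.64, adjusted p = 0.0464).

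The ratios of the chaperonin subunits differed more at 60 min than at 30 min, which is given as a description. On the same array, the log2 ratio of *HSP60* minus that of *HSP10* was -0.75 ± 0.46 at 60 min and -0.02 ± 0.31 at 30 min (SD, n = 3 each). It was below 0 on all 3 arrays of 60 min, at -0.64, -0.34 and -1.25. Over the 6 arrays the ratios of *HSP60* and *HSP10* had a Pearson correlation of 0.896 and those of *HSP10* and *PIM1* of 0.933, as a description over 6 points that share the step between the times.

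No gene of the matrix Hsp70 system rose at either time. *SSC1*, the essential Hsp70 of protein import and folding, had log2 ratios of -0.57, -1.40 and -1.02 at 60 min and -0.89, -0.39 and -0.40 at 30 min. All 6 lay below 0, and the times overlapped through experiment 1. The mean was -0.998 ± 0.42 at 60 min (SD, n = 3, adjusted p = 0.00762, a fold of 0.501) and -0.56 ± 0.29 at 30 min (n = 3, adjusted p = 0.0906). With print-block centring *SSC1* at 60 min was -0.75 (adjusted p = 0.0685), and the call was lost, and its mean at 30 min was -0.30.

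*ECM10* encodes a close paralogue of Ssc1 in the same compartment. Its log2 ratios were -0.09, -0.91 and -0.44 at 60 min, and 0.46, 0.29 and -0.20 at 30 min. The mean was -0.48 ± 0.41 at 60 min (SD, n = 3, adjusted p = 0.133) and 0.18 ± 0.34 at 30 min (n = 3, adjusted p = 0.578), so neither time passed the test. With print-block centring its mean at 60 min was 0.08. The ratio of *ECM10* lay above that of *SSC1* on all 6 arrays, by 0.52 ± 0.06 at 60 min and 0.74 ± 0.57 at 30 min (SD, n = 3 each). The sequences of these paralogues are alike, and whether the cDNA of 1 gene also bound the spot of the other was not tested.

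*MDJ1*, which encodes the J-protein that stimulates the ATPase of Ssc1, had log2 ratios of -0.93, -0.38 and -1.89 at 60 min and -0.95, -0.26 and -0.54 at 30 min. All 6 lay below 0, and experiment 3 of 60 min was the lowest by a wide margin. The mean was -1.07 ± 0.76 at 60 min (SD, n = 3, adjusted p = 0.0149, a fold of 0.477) and -0.58 ± 0.35 at 30 min (n = 3, adjusted p = 0.146). Without experiment 3 of 60 min the mean at that time was -0.66 (adjusted p = 0.104), and with print-block centring it was -0.67 (adjusted p = 0.0312).

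In the model of both times, only *MGE1*, which encodes the nucleotide exchange factor, fell at both. The arrays gave log2 ratios of -1.03, -0.70 and -0.63 at 60 min, and -1.30, -1.42 and -0.57 at 30 min. The mean was -0.79 ± 0.22 at 60 min (SD, n = 3, adjusted p = 0.0221, a fold of 0.579) and -1.10 ± 0.46 at 30 min (n = 3, adjusted p = 0.00601, a fold of 0.467). The times overlapped through experiment 3 of 30 min. With print-block centring the mean at 30 min was -0.73 (adjusted p = 0.0122). The call at 60 min was lost without experiment 1 (adjusted p = 0.0697) or experiment 2 (adjusted p = 0.0519) of that time, and the call at 30 min without experiment 1 (0.0677) or experiment 2 (0.0831). With array weights or each time fitted alone, the call of *MGE1* at 60 min was lost (0.0693 and 0.0645), and *SSC1* and *MDJ1* fell at both times instead.

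In the model of both times, *HSP78* was the only member that rose at both. It encodes the matrix Clp/Hsp100 protein that works with Ssc1 on aggregates. Its log2 ratios were 1.66, 1.33 and 0.65 at 60 min and 0.42, 1.63 and 0.68 at 30 min. All 6 lay above 0 and the times overlapped widely. The mean was 1.21 ± 0.51 at 60 min (SD, n = 3, adjusted p = 0.00788, a fold of 2.32) and 0.91 ± 0.64 at 30 min (n = 3, adjusted p = 0.0339, a fold of 1.88). The call at 30 min was lost with print-block centring (0.76, adjusted p = 0.0613), where *HSP10* rose at both times instead (0.0464 at 60 min and 0.00227 at 30 min). It was also lost without any 1 of its 3 experiments. The mean was then 1.157, 0.55 and 1.025 without experiment 1, 2 and 3 (adjusted p = 0.0611, 0.307 and 0.0769). With array weights the call of *HSP78* at 60 min was lost (0.0550).

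The chaperones that cooperate with Ssc1 were also set against it on the same arrays. The log2 ratio of *HSP78* minus that of *SSC1* was above 0 on 6 of 6 arrays, at 2.21 ± 0.53 for 60 min and 1.47 ± 0.49 for 30 min (SD, n = 3 each). *HSP60* minus *SSC1* was also above 0 on 6 of 6 arrays, at 0.61 ± 0.51 for 60 min and 1.72 ± 0.41 for 30 min. These are differences of 2 ratios and do not say which gene had more mRNA.

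**Figure D2:**
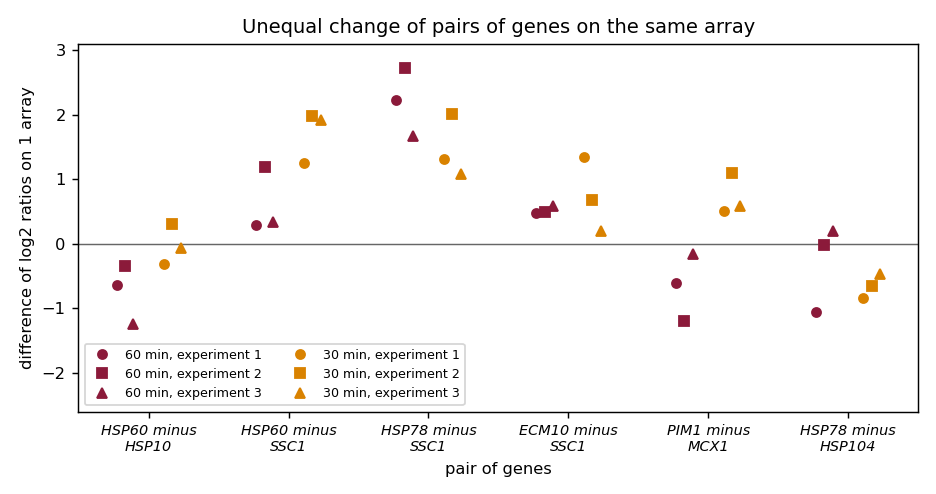
Difference between the log2 ratios of 2 genes on the same array (y axis) for 6 pairs of genes (x axis). Marker shapes are experiments 1 to 3 at 60 min (dark red, left) and at 30 min (orange, right). *HSP60*, *HSP78* and *ECM10* minus *SSC1* lie above 0 on all 6 arrays, while *PIM1* minus *MCX1* lies below 0 at 60 min and above 0 at 30 min.

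Of the members *PIM1*, *YME1* and *MCX1*, only *PIM1* passed the test in the model of both times. *PIM1* encodes the Lon protease of the matrix. Its log2 ratios were -0.80, -0.99 and -0.44 at 60 min and 0.10, 0.34 and 0.48 at 30 min, so that every array of 60 min was below 0 and every array of 30 min above it. The mean was -0.75 ± 0.28 at 60 min (SD, n = 3, adjusted p = 0.0184, a fold of 0.596) and 0.31 ± 0.19 at 30 min (n = 3, adjusted p = 0.283). The call at 60 min was lost without experiment 2 of that time (adjusted p = 0.0764). With print-block centring the mean at 30 min was 0.098.

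*YME1* encodes the AAA protease of the inner membrane that faces the intermembrane space. Its log2 ratios were -0.16, -1.34 and -0.31 at 60 min, and -0.17, 0.06 and -0.42 at 30 min. Experiment 2 of 60 min stood apart as the lowest. The mean was -0.60 ± 0.64 at 60 min (SD, n = 3, adjusted p = 0.0910) and -0.18 ± 0.24 at 30 min (n = 3, adjusted p = 0.622). The gene passed the test at 60 min without experiment 1 of that time (-0.83, adjusted p = 0.0432) and with print-block centring (-0.85, adjusted p = 0.0460), and with print-block centring its mean at 30 min was 0.23.

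*MCX1* encodes a ClpX-like protein of the matrix, for which yeast has no ClpP partner. On the arrays it had log2 ratios of -0.20, 0.20 and -0.29 at 60 min and -0.41, -0.75 and -0.11 at 30 min. The mean was -0.09 ± 0.26 at 60 min (SD, n = 3, adjusted p = 0.763) and -0.43 ± 0.32 at 30 min (n = 3, adjusted p = 0.160). It fell at 30 min with print-block centring (adjusted p = 0.0306). On the same arrays *PIM1* minus *MCX1* was -0.65 ± 0.52 at 60 min and 0.74 ± 0.32 at 30 min (SD, n = 3 each).

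The change between the times was tested in the same model. The difference of log2 ratios, 60 min minus 30 min, was -1.55 for *HSP60* (95% interval -2.37 to -0.73), -1.06 for *PIM1* (-1.70 to -0.41) and -0.83 for *HSP10* (-1.54 to -0.11). Their unadjusted p-values in limma were 0.00165, 0.00425 and 0.0270. None passed after adjustment over all features, with adjusted p-values of 0.449, 0.449 and 0.532. With print-block centring the difference of *PIM1* was -0.62. No feature of the array passed that threshold (0 of 6019, 0%), and 516 features (8.57%) had an unadjusted p under 0.05, 3 of the 10 members among them. The other 7 members had intervals that included 0, which reached as low as -1.38 for *ECM10* and as high as 1.17 for *HSP78*.

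Of the 10 members, 7 had a lower mean at 60 min than at 30 min, with a median difference of -0.46. Over all features the median difference was 0.03, and 2882 of 6019 lay below 0. *HSP60*, *HSP10* and *PIM1* were lower on every array of 60 min than on every array of 30 min (3 of 10 members), where 7.53% of features were. No member was higher on every array of 60 min (0 of 10), where 8.70% of features were. With print-block centring *HSP10* no longer had this order, as its highest array of 60 min (0.87) was above its lowest of 30 min (0.79), and *YME1* gained it.

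**Figure D3:**
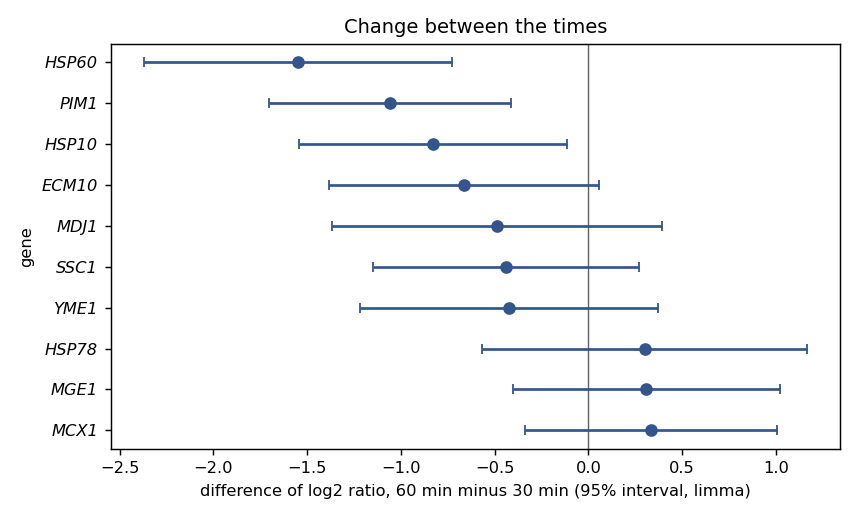
Difference of the mean log2 ratio, 60 min minus 30 min (x axis), for each gene (y axis), from 3 arrays at each time. Points are the estimates and bars the 95% intervals of limma, not adjusted for the number of features. The intervals of *HSP60*, *PIM1* and *HSP10* lie below 0, and the other 7 include it.

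The sign of the ratio on each array was counted as well. *HSP60* and *PIM1* were below 0 on all 3 arrays of 60 min and above 0 on all 3 arrays of 30 min (2 of 10 members), a pattern of 63 features, or 1.05% of those with a value on all 6 arrays. *SSC1*, *MDJ1* and *MGE1* were below 0 on all 6 arrays (3 of 10, 21.5% of features), and *HSP10* and *HSP78* were above 0 on all 6 (2 of 10, 18.9% of features). With print-block centring *HSP60* was above 0 on 1 array of 60 min, at 0.17 in experiment 2, and *PIM1* was below 0 on 1 array of 30 min, at -0.02 in experiment 1, while both were still lower on every array of 60 min than on every array of 30 min. With print-block centring *SSC1* was above 0 on 1 array of 60 min (0.016) and on 1 array of 30 min (0.18), *ECM10* was above 0 on all 6 arrays and *MCX1* below 0 on all 6.

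By rank, 29.4% of features had a lower mean than *HSP60* at 60 min, and 97.6% had one at 30 min. For its difference between the times, 0.399% of features were lower. *HSP10* stood above 69.6% of features at 60 min and above 97.8% at 30 min. *HSP78* stood above 96.3% at 60 min and above 94.2% at 30 min, and *MGE1* above 15.5% at 60 min and above 8.04% at 30 min.

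**Figure D4:**
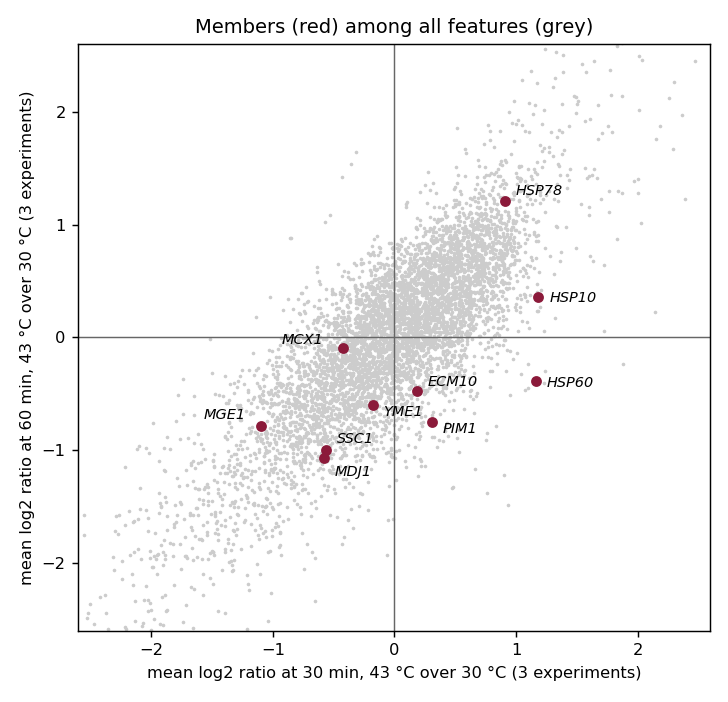
Mean log2 ratio at 60 min (y axis) against 30 min (x axis), each from 3 experiments, for all 6019 features (grey) and the 10 members (red). The axes leave out 103 features with larger values. *HSP78* lies high at both times, and *HSP60* and *HSP10* lie to the right of most features and below the diagonal run of the grey points.

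The genes whose 6 ratios lay closest to those of *HSP60* (Euclidean distance over the 6 arrays) were *PNC1* at 1.01, *GAD1* at 1.05, *MAL33* at 1.12, *HXT6* at 1.29 and *AHA1* at 1.29. The median distance over 5355 named genes was 2.86. *PNC1*, the closest, had a mean of -0.23 ± 0.47 at 60 min and 0.85 ± 0.76 at 30 min (SD, n = 3 each). *AHA1*, which encodes an activator of the Hsp90 ATPase, was the farthest of the 5. It had a mean of -0.23 ± 0.91 at 60 min and 1.10 ± 0.31 at 30 min (SD, n = 3 each). The genes closest to *HSP78* were *SOR1* at 0.668, *DFP3* at 0.734, *RTS3* at 0.743, *SDH9* at 0.753 and *RAD16* at 0.768, against a median distance of 3.17.

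Other genes of the same machinery were taken from fixed lists. Of 10 further partners of the mitochondrial Hsp70 and chaperonin systems, 9 were measured. In the model of both times, 0 rose and 2 fell at 60 min (15.6% and 18.2% of all features). At 30 min, 0 rose and 0 fell (10.7% and 15.9%). The 2 that fell at 60 min were *TCM62* and *CPR3*, at -1.14 ± 0.37 and -0.68 ± 0.36 (SD, n = 3 each). *TCM62* encodes a chaperonin-related protein of mitochondria and *CPR3* the cyclophilin of the matrix. The call of *CPR3* held in 10 of 19 alternatives (adjusted p up to 0.157), and that of *TCM62* in 19 of 19. With 30 min fitted alone or with array weights, 2 of the 9 rose and 2 fell at 30 min, and the share of all features under these fits was not counted. The median of the 9 was -0.32 at 60 min and -0.01 at 30 min.

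Of 19 other mitochondrial proteases and their partners, 3 rose and 3 fell at 60 min (15.6% and 18.2% of all features), and 2 rose and 0 fell at 30 min (10.7% and 15.9%). Leaving out 1 array of 30 min gave 0 to 1 that rose at 30 min, and leaving out 1 array of 60 min took those that fell at 60 min to as few as 0 and those that rose to as few as 1. *MGR1*, which encodes an adaptor of Yme1, rose at both times, at 1.01 ± 0.68 for 60 min and 0.82 ± 0.37 for 30 min (SD, n = 3 each). With print-block centring it was 0.60 at 60 min and 0.53 at 30 min, and both calls were lost (adjusted p = 0.145 and 0.187). The call at 60 min was also lost without experiment 1 (0.0737) and the call at 30 min without any 1 of its 3 experiments (0.0636 to 0.263). *SOM1*, which encodes a component of the inner membrane peptidase, also rose at both times, at 1.23 ± 0.62 for 60 min and 1.12 ± 0.49 for 30 min, and its call at 30 min was lost without experiment 1 (adjusted p = 0.138). *YTA12*, a subunit gene of the m-AAA protease, rose at 60 min, at 0.71 ± 0.34, and was 0.39 with print-block centring (adjusted p = 0.150). *AFG1*, *PRD1* and *MAS2* fell at 60 min, at -1.03 ± 0.51, -0.87 ± 0.61 and -0.57 ± 0.18. The calls of *AFG1*, *PRD1*, *MAS2* and *YTA12* held in 17, 14, 9 and 13 of 19 alternatives. Of the 19 genes of the list, 13 passed at neither time, among them other subunit genes of the same complexes.

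The machinery that brings proteins into the mitochondrion is upstream of the members. Of its 25 measured genes, 10 fell and 0 rose at 60 min (18.2% and 15.6% of all features), and 3 fell and 1 rose at 30 min (15.9% and 10.7%). *TIM23*, which encodes the channel through which chains reach Ssc1, fell at both times, at -1.44 ± 0.29 for 60 min and -0.82 ± 0.19 for 30 min (SD, n = 3 each), and its call at 30 min was lost without any 1 of the 3 experiments (adjusted p 0.0706 to 0.106). *TOM22*, a receptor gene of the outer membrane, also fell at both times, at -0.95 ± 0.36 for 60 min and -0.83 ± 0.47 for 30 min, and its call at 30 min was lost without experiment 1 or 2 (0.212 and 0.188). The receptor gene *TOM20* had -1.59 ± 0.49 at 60 min, where it fell, and -0.48 ± 0.15 at 30 min. *TOM71*, *TOM40* and *ERV1* fell at 60 min as well, *ERV1* not without experiment 2 (adjusted p = 0.0734). *TIM12* rose and *TIM50* fell at 30 min, at 0.79 ± 0.15 and -0.68 ± 0.34, and were picked out after their values were seen. The median of the list was -0.42 at 60 min and -0.35 at 30 min. Its count of genes that fell at 30 min was 10 with print-block centring and 0, 0 and 1 without experiment 1, 2 and 3 of 30 min.

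**Figure D5:**
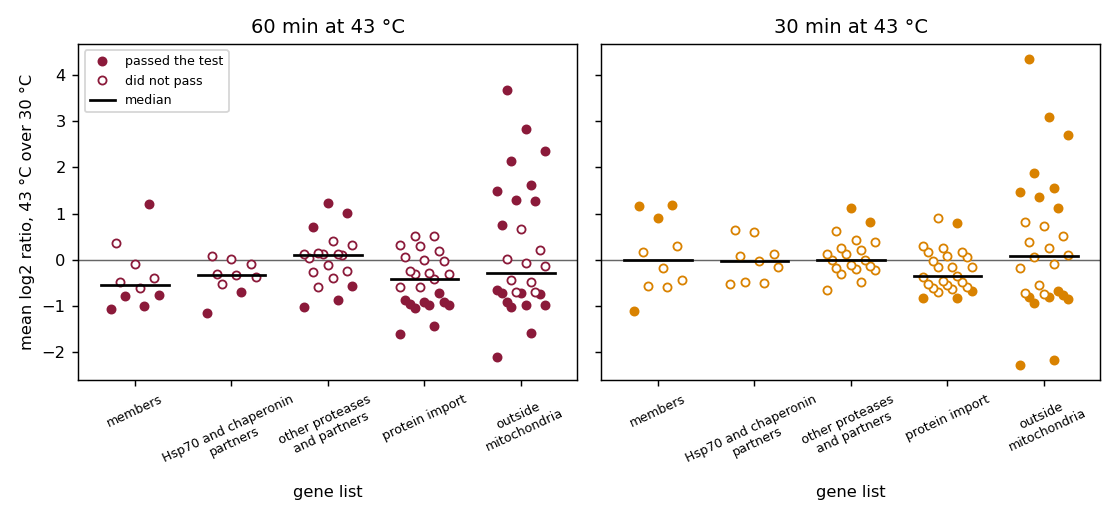
Mean log2 ratio of 3 experiments (y axis) for the 10 members and the measured genes of 4 further lists (x axis) at 60 min (left panel) and 30 min (right panel). Filled circles passed limma at an adjusted p under 0.05, open circles did not, and black bars are medians. At 60 min 10 of the 25 import genes are filled and lie below 0, and the counterparts outside mitochondria span the widest range at both times.

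The counterparts outside mitochondria gave the range against which the members can be set. Of 28 measured chaperone genes of the cytosol and endoplasmic reticulum, 9 rose and 10 fell at 60 min (15.6% and 18.2% of all features), and 8 rose and 8 fell at 30 min (10.7% and 15.9%). Leaving out 1 array took those that fell to as few as 4 at 60 min and 2 at 30 min, and those that rose at 30 min to as few as 5. The genes with the largest changes were *SSA4* (2.83 ± 0.75 at 60 min and 4.34 ± 0.87 at 30 min), *HSP26* (3.69 ± 1.91 and 3.098 ± 1.18) and *SSA3* (1.61 ± 1.10 and 2.71 ± 0.69), which rose at both times, as did *SIL1*, the nucleotide exchange factor gene of Kar2 (2.36 ± 0.40 and 1.12 ± 0.70). *SSA3* at 60 min was 0.78 with print-block centring (adjusted p = 0.0897), and *SIL1* at 30 min lost its call without experiment 1 or 2 (0.153 and 0.0699). The ribosome-associated Hsp70 genes *SSB2* (-2.09 ± 0.33 at 60 min and -2.16 ± 0.59 at 30 min) and *SSZ1* (-1.58 ± 0.32 and -2.26 ± 0.26) fell at both times. On every array *SSC1* lay below the inducible cytosolic Hsp70 gene *SSA4*, by a difference of -3.83 ± 0.48 at 60 min and -4.90 ± 0.68 at 30 min, and below the endoplasmic reticulum Hsp70 gene *KAR2*, by -3.14 ± 0.43 at 60 min and -2.03 ± 0.38 at 30 min (SD, n = 3 each). *KAR2* itself rose at both times, at 2.14 ± 0.23 for 60 min and 1.47 ± 0.17 for 30 min.

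*HSP78* and its cytosolic relative *HSP104* lay closer together. *HSP78* minus *HSP104* was -0.29 ± 0.67 at 60 min and -0.65 ± 0.19 at 30 min (SD, n = 3 each), and was above 0 on 1 of 6 arrays. *HSP60* and *TCP1*, a subunit gene of the cytosolic chaperonin, lay apart at 30 min. *TCP1* fell at both times, at -0.72 ± 0.19 for 60 min and -0.68 ± 0.25 for 30 min, and *HSP60* minus *TCP1* was 0.33 ± 0.39 at 60 min and 1.84 ± 0.70 at 30 min. *MDJ1* minus the cytosolic J-protein gene *YDJ1* was -0.59 ± 1.02 at 60 min and -0.97 ± 0.51 at 30 min.

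Several members share their upstream region with a divergently transcribed gene, here taken from RefSeq gene order and the strand letter of the systematic gene names. This holds for 5 of the 10 members, and the divergent neighbour was measured for 4 of them. *LCB5*, beside *HSP60*, had 0.21 ± 0.23 at 60 min and 0.07 ± 0.05 at 30 min (SD, n = 3 each) and passed the test at neither time. *TAH11*, beside *SSC1*, had -0.55 ± 0.35 at 60 min and fell at 30 min, at -0.87 ± 0.11. *SLX1*, beside *MCX1*, had 0.45 ± 0.47 at 60 min and rose at 30 min, at 0.86 ± 0.07. *EAF3*, beside *YME1*, had -0.41 ± 0.29 at 60 min and 0.15 ± 0.20 at 30 min, and passed at neither.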

How the data were processed

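Cells were heat-shocked at 43°C or kept at 30°C for 60 or 30 min and compared on 2-colour cDNA arrays, 3 per time. Per the labels, the authors made 2 scans per array that differed in laser power. Per the paper's methods, they measured spots with GenePix and normalized the Cy5/Cy3 ratio to negative control spots. The deposited log ratios, treated here as log2, name no base. Reading them as natural logarithms would give 844 features over 2-fold up at 30 min, against 266 as log2, and this base was chosen after the values were seen. The 2 scans of an array differed in 0 values and were counted once. Of 6912 probes, 6162 had a value. Probes with identical values on every array (78 groups) were merged and other probes of 1 gene averaged, which left 6019 features. Depth does not apply to arrays, and their number limits the precision.

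Tests used limma 3.58.1 in R 4.3.3 (lmFit, eBayes), with the mean of each time against 0 and 60 min minus 30 min in 1 model, adjusted by Benjamini-Hochberg over all features at 0.05. The fit was tested on simulated data. The study's rule (over 2-fold in at least 2 of 3 experiments) was applied beside it. Members and lists were chosen with earlier results of these data known. All 10 members are named, and from each other list the largest changes, up to 6, among genes past the threshold whose 3 experiments shared a sign. Other genes named were taken for a fixed comparison with a member, for closeness to it or as its neighbour, and *TIM12* and *TIM50* after their values were seen. The alternatives tried were scaling, print-block centring (192 blocks), array weights, each time fitted alone, a replicate block and leaving out arrays. Experiment numbers were not treated as pairs. No sequences were used here. RefSeq positions were used for gene order only, and orientation was read from the strand letter of the systematic gene name.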

Additional observations from a re-analysis of the deposited data

Results flagged for a closer look

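*HSP60* and *PIM1* drew attention because all 3 arrays of 60 min lay on 1 side of 0 and all 3 arrays of 30 min on the other. The difference of the log2 ratio, 60 min minus 30 min, was -1.55 for *HSP60* and -1.06 for *PIM1*. The difference itself was tested in limma and did not pass after adjustment over all features (adjusted p = 0.449 for both), and no feature of the array did. Over the alternatives, the difference was -1.95 to -1.23 for *HSP60* (adjusted p 0.188 to 0.942) and -1.21 to -0.62 for *PIM1* (adjusted p 0.267 to 0.942).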

How the results depend on the processing

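Over 380 alternative values of the members' ratios, 340 kept direction and side of the threshold, 25 lost a call, 11 gained one and 4 changed sign. Some of the 340 could not differ. The scans of an array differed in 0 values and the minimum number of values removed 0 features, so 1 scan alone or no minimum repeated the main result. The counts of alternatives given above for single genes include such settings too. At 60 min, array weights gave 0 members that rose and 2 that fell, print-block centring gave 2 that rose, and 60 min fitted alone gave 2 that fell. At 30 min, scaled arrays, 30 min alone, array weights and print-block centring gave 2, 3, 4 and 2 members that fell. The share of all features called by limma was counted in the main model only. Counts of limma calls under the alternatives, of members and of lists, thus have no background beside them. Without experiment 3 of both times, an alternative chosen after seeing the data, 1 member fell at 60 min and 0 rose at 30 min. Leaving out 1 array gave 2 to 4 that fell at 60 min, and at 30 min 0 to 3 that rose and 0 to 2 that fell. The 2-fold rule gave 0 members in each direction at both times when all 3 experiments had to pass, 0 up at 60 min and 0 down at both times with print-block centring, 4 down at 60 min as natural logarithms, and, without experiment 3 of both times, 0 down at 60 min and 0 up at 30 min. Leaving out 1 array gave 0 to 1 up and 0 to 1 down at 60 min, and 0 to 2 up and 0 to 1 down at 30 min. The rule still asked for 2 arrays over 2-fold when an array was left out. Each member's call rested on exactly 2 arrays, so dropping either of them removed the call by the rule itself. Experiment 3 was 1 of these 2 arrays for *HSP60*, *HSP10* and *SSC1*, and was not for *HSP78* and *MGE1*. Signs changed for *ECM10* at 60 min (0.083) and *YME1* at 30 min (0.23) with print-block centring, for *MCX1* at 60 min when experiment 3 was dropped at 60 min or at both times (0.0012; -0.24 to 0.0012 over single arrays left out), and for the difference of *HSP78* with array weights (-0.11). The cause was not tested.

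Same-numbered arrays had correlations of their deviations of -0.0420, 0.127 and 0.356 for experiments 1 to 3. With the replicate block, 1 member rose and 4 fell at 60 min, 3 rose and 1 fell at 30 min, no member's call changed, and the difference of *HSP60* had an adjusted p of 0.245. The motif search in promoters was not run, as no sequences were used here. Experiment 3 held the most tied values, 1999 features at 60 min (*ECM10* among them) and 2480 at 30 min (*MGE1*, *HSP78* and *MCX1* among them).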
